A study of Mus musculus with 8 samples.

Results

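Erythroid and haemoglobin genes were examined in cochlear RNA of mice with and without a mutation of *Opa1*. The rule named 9 genes of red cells by symbol. Of these, 8 were analysed, which are globins, the erythroid enzyme of haem synthesis, red cell membrane proteins and a transcription factor of red cell precursors, and all 8 passed the minimum of the test, a mean normalised count over 10. They are 8 of the 47502 symbols in the count tables and 8 of the 19366 entries tested.

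The study addressed how loss of OPA1, a mitochondrial inner membrane GTPase that keeps mitochondria fused and their cristae in shape, affects hearing. *Opa1*+/- mice were heterozygous for the knock-in delTTAG, a germline deletion of 4 bases that all cells of the animal carry, and WT mice were their control littermates without it. Both groups were on the mixed C57BL/6J and 129Sv/Pas background, were 21 days old and received no treatment. RNA of isolated cochlea was sequenced from 4 WT mice, labelled WT_4, WT_5, WT_6 and WT_8, and 4 *Opa1*+/- mice, labelled Het_2, Het_7, Het_484 and Het_491. Each replicate is a separate mouse, and values by mouse are given in this order throughout.

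Red blood cells arise in the bone marrow from erythroid precursors, which switch on globin genes, haem synthesis and a specialised membrane skeleton before they lose their nucleus. Circulating reticulocytes and young red cells still hold globin mRNA, so whole tissue that contains blood or marrow contributes these transcripts. The cochlea is supplied by the vessels of the stria vascularis and spiral ligament and lies in bone, and the labels and methods do not state whether blood was washed out or how much bone was kept. In bulk RNA, a smaller number of erythroid cells and less RNA per cell cannot be told apart.

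Counts on named genes ranged from 15978051 to 20828030 per mouse, and levels are given as CPM, counts scaled to a common library size with TMM (trimmed mean of M-values) factors of 0.948 to 1.06. *Opa1* served as a check of the labels. It had 119, 126, 112 and 122 CPM in the WT mice and 63.5, 68.4, 60.4 and 70.02 CPM in the *Opa1*+/- mice. The groups did not overlap, and the log2 fold change, *Opa1*+/- over WT, was -0.87 ± 0.068 (SE; adjusted p = 0.00515, quasi-likelihood F test of edgeR, Benjamini-Hochberg over all entries). Defining markers of hair cells, spiral ganglion neurons and stria vascularis were above 0 in every library, with *Myo7a* at 19.9 to 32.9 CPM, *Nefh* at 1042 to 1581 CPM and *Kcnq1* at 15.2 to 30.4 CPM. The neuron markers did not move together. Mouse WT_6 had the highest *Nefh* but the lowest *Tubb3* and *Prph*, at 212.5 and 76.05 CPM. The other mice had 300.5 to 397.8 CPM of *Tubb3* and 220.8 to 344.5 CPM of *Prph*.

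The 8 genes together showed high levels in every cochlear sample and a wide spread between mice of one genotype. Their summed level was 21424, 12300.0, 8726 and 7740.5 CPM in the WT mice, and 15419, 15040.0, 18426 and 25033 CPM in the *Opa1*+/- mice. Mouse WT_4 lay above 3 of the 4 *Opa1*+/- mice, whereas the other 3 WT mice lay below all 4. The WT mean was 12548 ± 6233 CPM and the *Opa1*+/- mean 18480.0 ± 4624 CPM (SD, n = 4 each), a ratio of 1.47. Over the 8 mice the highest sum was 3.23 times the lowest, with 2.77 times among WT and 1.66 times among *Opa1*+/- mice. The 4 globin genes made up 98.6 to 99.1% of this sum.

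Haemoglobin is a tetramer of a pair of alpha chains and a pair of beta chains, each holding a haem group. The mouse reference genome, of strain C57BL/6J, carries 2 adult alpha globin genes and 2 adult beta globin genes among the 8. *Hba-a1* (ENSMUSG00000069919.7) lies on GRCm38 chr11:32283511-32284465, plus strand, and *Hba-a2* (ENSMUSG00000069917.7) on chr11:32296489-32297298, plus strand. *Hbb-bs* (ENSMUSG00000052305.6) lies on chr7:103826534-103828096 and *Hbb-bt* (ENSMUSG00000073940.3) on chr7:103812524-103813996, both on the minus strand.

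The copies within each pair are almost the same in sequence, which bears on how reads were assigned to them. The coding sequences of *Hba-a1* and *Hba-a2*, 429 bases each in GENCODE vM21, differ at 1 base, C381T, with position 1 at the first base of the start codon and *Hba-a1* given first. Those of *Hbb-bs* and *Hbb-bt*, 444 bases each, differ at 1 base, C417T, with *Hbb-bs* first. Both changes fall in the last base of a codon, codon 127 of the alpha genes and codon 139 of the beta genes. The stretches below run from coding base 292 to 381 of the alpha genes and from 328 to 417 of the beta genes, 5′ to 3′, with the differing base in capitals.
Hba-a1: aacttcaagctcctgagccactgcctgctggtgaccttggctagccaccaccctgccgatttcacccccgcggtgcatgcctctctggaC
Hba-a2: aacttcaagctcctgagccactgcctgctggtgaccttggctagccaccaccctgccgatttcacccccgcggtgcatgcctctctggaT
Hbb-bs: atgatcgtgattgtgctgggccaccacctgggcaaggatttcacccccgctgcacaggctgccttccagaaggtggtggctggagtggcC
Hbb-bt: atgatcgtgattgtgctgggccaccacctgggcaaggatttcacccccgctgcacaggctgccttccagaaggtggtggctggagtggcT
Reads were 80 bases from each end of a fragment. Of all 80-base windows of the annotated *Hba-a1* transcript, 61.1% occur letter for letter in that of *Hba-a2*, and 63.9% of those of *Hbb-bs* occur in that of *Hbb-bt*, whereas none of *Hba-a1* occur in *Hbb-bs*. The counting program and its treatment of reads with several matches are not given in the sources used here, so the split of counts within a pair is uncertain, and the sums of the alpha pair and of the beta pair are firmer than their parts. The 129Sv/Pas globin alleles that these mice may also carry were not analysed here.

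The sequence just before each gene's start is shown for 5 of the genes because erythroid genes are known to be controlled there by GATA1 and by KLF1, which is itself one of the 8. Each stretch ends at the base before the annotated start of the gene's first listed GENCODE transcript and is read 5′ to 3′ on the gene's strand from RefSeq promoter windows of GRCm38.p6. Capitals mark 2 motifs searched on both strands, a GATA motif (GATA with A or T before it and A or G after it) and a CACC motif of the kind KLF1 binds (CCNCNCCC).
Hba-a2, chr11:32296289-32296488, plus strand: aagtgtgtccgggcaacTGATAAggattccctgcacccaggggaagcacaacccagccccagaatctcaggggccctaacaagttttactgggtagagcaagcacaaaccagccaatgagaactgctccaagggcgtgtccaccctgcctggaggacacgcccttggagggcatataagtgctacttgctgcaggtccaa
Hbb-bs, chr7:103827929-103828028, minus strand: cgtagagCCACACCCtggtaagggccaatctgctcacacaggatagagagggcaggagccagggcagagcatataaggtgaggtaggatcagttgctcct
Hbb-bt, chr7:103813997-103814096, minus strand: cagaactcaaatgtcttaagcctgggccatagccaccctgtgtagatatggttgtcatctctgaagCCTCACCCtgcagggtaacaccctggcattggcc
Alas2, chrX:150547275-150547374, plus strand: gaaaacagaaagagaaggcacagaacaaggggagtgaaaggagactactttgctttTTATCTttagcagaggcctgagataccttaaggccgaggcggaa
Klf1, chr8:84901828-84901927, plus strand: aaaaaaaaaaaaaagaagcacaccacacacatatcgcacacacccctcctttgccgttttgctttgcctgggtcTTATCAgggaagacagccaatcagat
In the full windows of 250 bases before the RefSeq start, 6 of the 7 genes with a window (*Hba-a1*, *Hba-a2*, *Hbb-bs*, *Alas2*, *Epb42* and *Klf1*) held the GATA motif, which 26.5% of 32851 promoters hold. The CACC motif was in 3 of the 7 (*Hbb-bs*, *Hbb-bt* and *Alas2*, in the latter as 4 matches of which 3 overlap) and in 45.9% of all promoters. The GATA match of *Hbb-bs* lies before the printed stretch and the CACC matches of *Alas2* after it, within the annotated first exon. *Slc4a1* was not among the windows. The windows of *Hba-a1* and *Hba-a2* share an unbroken run of 247 bases, so they are not separate examples. A match describes these letters and is not evidence of binding.

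Alpha globin transcripts were the highest of the 8 per length of gene. On the scale of CPM per kilobase of merged exons, the mean level over the 8 mice was 8330.3 for *Hba-a2*, 7519 for *Hba-a1*, 3183 for *Hbb-bs*, 1740.3 for *Hbb-bt*, 34.1 for *Alas2*, 16.9 for *Slc4a1*, 7.47 for *Klf1* and 1.37 for *Epb42*. Every one of the 8 mice gave this same order. The levels of neighbours in the order overlapped over the 8 mice for 5 of the 7 neighbouring pairs and did not for *Hbb-bt* and *Alas2* or for *Klf1* and *Epb42*. Within a mouse, *Hbb-bt* stood 47.0 to 56.2 times above *Alas2* per length, and *Hba-a2* stood 1.05 to 1.16 times above *Hba-a1*. By counts, *Hba-a1* was the higher of the 2 alpha genes in every mouse. Their order per length therefore rests on the lengths used, 812 bases for *Hba-a1* and 667 for *Hba-a2*, and on how shared reads were assigned. These are the same for every mouse, so agreement between mice does not settle it.

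**Figure D1:**
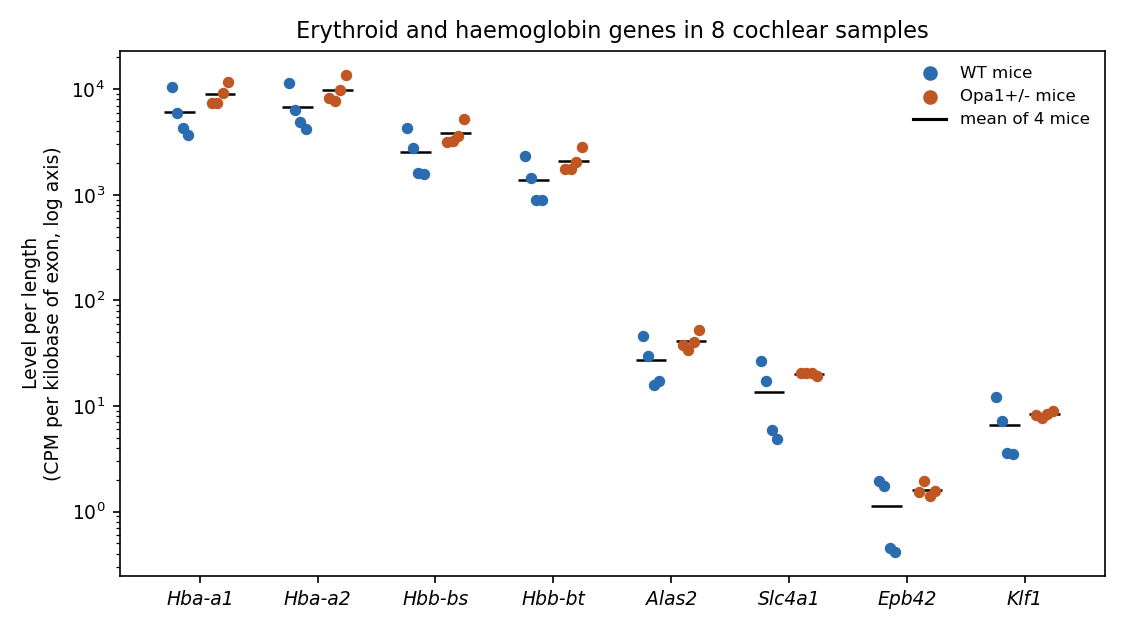
Level per length (CPM per kilobase of merged exon, log axis) of each of the 8 genes, with one point per mouse, blue for WT and orange for *Opa1*+/-, and a bar at the mean of each group of 4 mice. The 4 globin genes sit at 886 or higher in every mouse and the other 4 genes at 52.2 or lower, and the points of both genotypes overlap for all 8 genes.

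Among the globin genes, the same mice were high and low for both chains. *Hba-a1* had 8544, 4785, 3511 and 3022 CPM in the WT mice and 5997, 5976, 7409 and 9600.5 CPM in the *Opa1*+/- mice. *Hba-a2* had 7695, 4216, 3272 and 2808 CPM in the WT mice and 5511, 5168, 6612 and 9168 CPM in the *Opa1*+/- mice, in the same order of mice. For both alpha genes mouse Het_491 was the highest, mouse WT_4 the next, and mice WT_6 and WT_8 the lowest, so the groups overlapped.

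The beta genes gave the same picture at lower levels. *Hbb-bs* had 3275, 2113, 1243 and 1213 CPM in the WT mice and 2453, 2457, 2765 and 4039.7 CPM in the *Opa1*+/- mice. *Hbb-bt* had 1639.7, 1011, 625 and 623 CPM in the WT mice and 1246, 1236, 1423 and 1982 CPM in the *Opa1*+/- mice. For each of the 4 globin genes, 13 of the 16 pairs of one *Opa1*+/- and one WT mouse had the *Opa1*+/- mouse higher, and the 3 exceptions all involved mouse WT_4. Globin counts were 2.14, 1.19, 0.852 and 0.814% of all counts on named genes in the WT mice and 1.55, 1.46, 1.84 and 2.35% in the *Opa1*+/- mice. The counting error of a single globin value was 0.26 to 0.98%, far below the differences between mice.

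*Alas2*, which encodes the erythroid form of the first enzyme of haem synthesis, followed the globins closely. It had 110.2, 71.1, 38.1 and 41.8 CPM in the WT mice and 90.7, 81.4, 96.0 and 125 CPM in the *Opa1*+/- mice. Mouse Het_491 and mouse WT_4 were again the highest and mice WT_6 and WT_8 the lowest. The gene (ENSMUSG00000025270.13) spans chrX:150547375-150570638 on the plus strand. Exons of *Apex2* on the opposite strand overlap it, and since the use of strand is not given in the sources used here, reads of the 2 genes may be mixed. All 8 libraries together held 642 counts for *Apex2* and 11551 for *Alas2*.

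The membrane genes separated the mice more sharply. *Slc4a1* (ENSMUSG00000006574.15, chr11:102348824-102366203, minus strand) encodes band 3, the anion exchanger of the red cell membrane, and had 129.6, 83.7, 28.9 and 24.0 CPM in the WT mice. In the *Opa1*+/- mice it had 100.2, 99.9, 100.4 and 94.9 CPM. The 4 *Opa1*+/- mice thus lay within 1.06 times of each other, while the highest WT mouse had 5.39 times the level of the lowest.

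*Epb42* (ENSMUSG00000023216.13, chr2:121017891-121037072, minus strand) encodes protein 4.2, which binds band 3 to the membrane skeleton. It had 10.5, 9.52, 2.45 and 2.25 CPM in the WT mice and 8.28, 10.5, 7.61 and 8.42 CPM in the *Opa1*+/- mice. Mouse WT_4 lay just above the range of the *Opa1*+/- mice, mouse WT_5 within it, and mice WT_6 and WT_8 far below it. With 41 to 209 counts per library, the counting error of a single value was 6.92 to 15.6%.

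*Klf1* (ENSMUSG00000054191.8, chr8:84901928-84905291, plus strand) encodes the transcription factor that drives adult beta globin and many other red cell genes. It had 18.6, 10.9, 5.50 and 5.39 CPM in the WT mice and 12.5, 11.8, 12.9 and 13.7 CPM in the *Opa1*+/- mice. The *Opa1*+/- mice lay within 1.16 times of each other and between mouse WT_4 and the other 3 WT mice. *Klf1*, a nuclear factor of precursors, was at 92 to 326 counts per library.

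**Figure D2:**
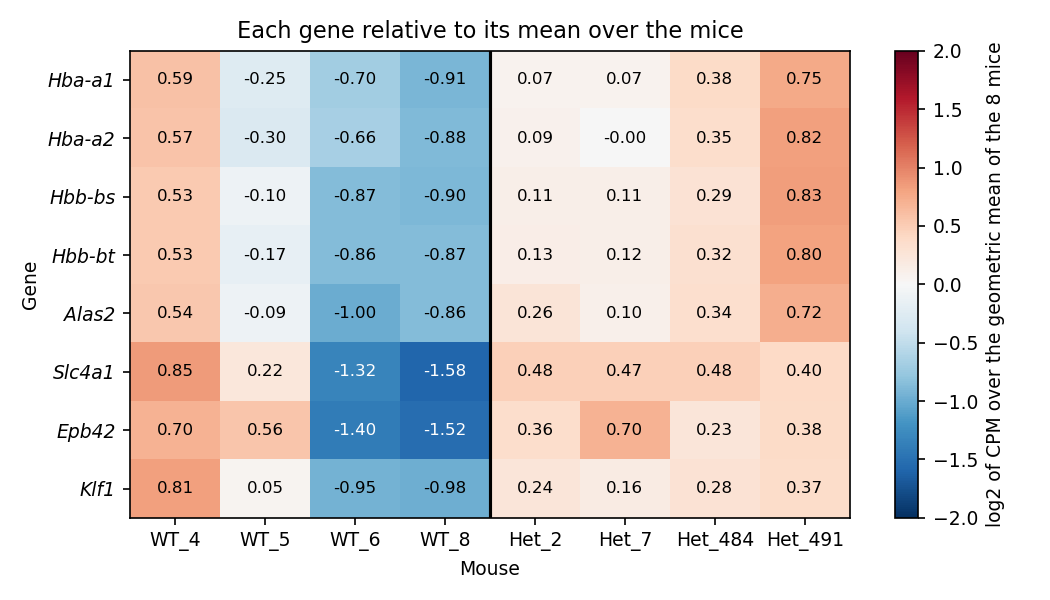
Heat map of the log2 of CPM over the geometric mean of the 8 mice, with a row per gene, a column per mouse and a line between the 4 WT mice (left) and the 4 *Opa1*+/- mice (right). Mice WT_6 and WT_8 are low in all 8 rows, and mouse WT_4 is high in all 8, as are the *Opa1*+/- mice in most rows.

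The genotypes were compared with edgeR's quasi-likelihood test over all 19366 entries. None of the 8 genes was called at an adjusted p under 0.05, nor at an unadjusted p under 0.05, where the test called 0.0258% and 6.72% of all entries. DESeq2's Wald test called 0 of 8 at both thresholds, against 0.119% and 5.76% of entries. Limma voom with sample quality weights called 0 of 8 at the adjusted threshold, against 0.0516% of entries, and 6 of 8 unadjusted, against 10.3% of entries. All 8 log2 fold changes, *Opa1*+/- over WT, were above 0, as were 50.1% of all entries, with a median of 0.56 over the 8 genes and of 0.000395 over all entries. The 8 genes rose and fell together over the mice. Counts of these genes, here and below, are therefore not 8 separate observations and do not show an excess over the share of all entries.

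The globin fold changes were almost equal to each other. *Hba-a1* had group means of 4966 ± 2499 CPM (WT) and 7245 ± 1707 CPM (*Opa1*+/-; SD, n = 4 each), a log2 fold change of 0.55 ± 0.31 (SE; adjusted p = 0.766, edgeR's quasi-likelihood test) or 1.46-fold with a 95% interval of 0.904 to 2.36. *Hba-a2* had a log2 fold change of 0.56 ± 0.31, *Hbb-bs* of 0.58 ± 0.32 and *Hbb-bt* of 0.59 ± 0.31, with adjusted p-values of 0.758 to 0.765. With 1 mouse left out, the lowest log2 fold changes were 0.36 for *Hba-a1*, without mouse WT_8, and 0.35, 0.38 and 0.41 for *Hba-a2*, *Hbb-bs* and *Hbb-bt*, without mouse Het_491. The highest were 0.94 to 0.97, without mouse WT_4. The interval of *Hbb-bt*, 0.938- to 2.43-fold, also held 1. These data therefore leave room for no difference and for more than a doubling.

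For *Alas2* the means were 65.3 ± 33.4 CPM in WT against 98.4 ± 19.0 CPM in *Opa1*+/- mice, a log2 fold change of 0.59 ± 0.31 (SE; adjusted p = 0.760, edgeR). *Slc4a1* averaged 66.5 ± 49.98 and 98.9 ± 2.65 CPM, a log2 fold change of 0.57 ± 0.46 with an interval of 0.728- to 3.04-fold. *Epb42* averaged 6.18 ± 4.44 and 8.70 ± 1.24 CPM, with 0.49 ± 0.46, and *Klf1* averaged 10.1 ± 6.23 and 12.7 ± 0.786 CPM, with 0.33 ± 0.35 on the log2 scale. Their adjusted p-values were 0.830, 0.853 and 0.875, and the *Opa1*+/- mouse was higher in 12, 9 and 12 of 16 pairs. These values moved with single mice. Without mouse WT_8 the log2 fold change was 0.29 for *Slc4a1*, 0.21 for *Epb42* and 0.12 for *Klf1*. Without mouse WT_6 it was 0.32, 0.24 and 0.14, and without mouse WT_4 it was 1.12, 0.87 and 0.80. For *Epb42* it was 0.79 without mouse WT_5. With limma voom the 3 values were 1.01, 0.86 and 0.59. For *Alas2* it ranged from 0.40, without mouse WT_6, to 0.97, without mouse WT_4.

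Mouse WT_4 carried much of the overlap between the groups. It is singled out here because of its values, so its removal favours a separation of the groups, and what follows is a description. Without it the median log2 fold change of the 8 genes was 0.95, and every *Opa1*+/- mouse lay above every remaining WT mouse for 7 of 8 genes, all but *Epb42*. That order of the mice held for 6.14% of all 19361 entries tested without it. By edgeR, unadjusted p-values were then under 0.05 for the same 7 genes, against 10.4% of entries in either direction and 6.03% with higher levels in *Opa1*+/- mice, but the adjusted count stayed at 0 of 8, against 0.0465% of entries. With any other single mouse left out the median was 0.37 to 0.64, lowest without mouse WT_8. Without mice Het_484 and Het_491 the median was 0.34, and without these and mouse WT_4 it was 0.72.

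**Figure D3:**
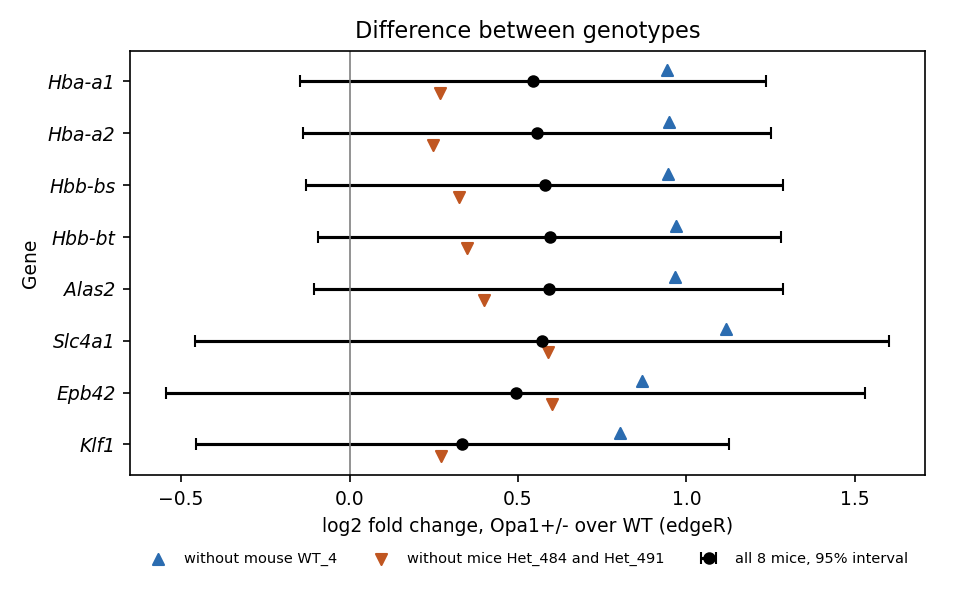
Log2 fold change, *Opa1*+/- over WT, of the 8 genes with 95% intervals from edgeR (black circles, all 8 mice), with the value without mouse WT_4 (blue triangles) and without mice Het_484 and Het_491 (orange triangles). All 8 intervals cross 0, every blue triangle lies to the right of its circle, and the orange triangle lies to the left for all genes but *Slc4a1* and *Epb42*.

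The spread within genotypes was large beside that of other genes. The SD of log2 CPM around the group means was 0.52 for *Hba-a1*, larger than in 91.9% of all entries tested, and 0.54 for *Alas2*, larger than in 92.6%. For *Slc4a1* it was 0.83 and for *Epb42* 0.85, larger than in 97.5% and 97.6% of entries.

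Ratios between the genes within a mouse do not depend on library scaling, and 7 were tested between genotypes by two-sided exact permutation of the mice, with 70 arrangements and a smallest possible p of 0.0286. The ratio of alpha to beta globin counts was 3.30, 2.88, 3.63 and 3.17 in the WT mice and 3.11, 3.02, 3.35 and 3.12 in the *Opa1*+/- mice. It averaged 3.25 ± 0.311 in the former and 3.15 ± 0.141 in the latter (SD, n = 4 each; exact p = 0.571, adjusted over 7 ratios 0.767). It varied by 1.26 times over mice whose summed level varied by 3.23 times.

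The shares of the copies were steadier still. *Hba-a1* had 1.05 to 1.16 counts for each count of *Hba-a2*, with means of 1.10 ± 0.0295 in WT and 1.10 ± 0.0465 in *Opa1*+/- mice (exact p = 0.886, the same after adjustment). *Hbb-bt* had 0.479 to 0.515 counts for each count of *Hbb-bs*, with means of 0.499 ± 0.0146 and 0.504 ± 0.0101 (exact p = 0.571, adjusted 0.767). Since the copies share most of their sequence, these ratios depend on how shared reads were assigned as well as on transcript levels.

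The other genes were set against the globin counts of the same mouse. *Alas2* had 5.21, 5.87, 4.40 and 5.45 counts per 1000 globin counts in the WT mice and 5.96, 5.48, 5.28 and 5.06 in the *Opa1*+/- mice (exact p = 0.600, adjusted 0.767), a span of 1.36 times. *Slc4a1* had 6.12, 6.91, 3.34 and 3.13 in the WT mice and 6.59, 6.73, 5.52 and 3.83 in the *Opa1*+/- mice (exact p = 0.429, adjusted 0.767). The span of *Slc4a1*, 2.20 times, was thus wider than that of *Alas2*, and its low mice were mice WT_6 and WT_8 and mouse Het_491.

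*Epb42* had 0.497, 0.785, 0.283 and 0.294 counts per 1000 globin counts in the WT mice and 0.544, 0.706, 0.418 and 0.340 in the *Opa1*+/- mice (exact p = 0.657, adjusted 0.767). *Klf1* had 0.880, 0.902, 0.635 and 0.702 in the WT mice and 0.824, 0.797, 0.707 and 0.554 in the *Opa1*+/- mice (exact p = 0.571, adjusted 0.767). For *Slc4a1*, *Epb42* and *Klf1* the same 3 mice, WT_6, WT_8 and Het_491, were lowest, although the globin sum was lowest in mice WT_6 and WT_8 and highest in mouse Het_491. The 3 ratios share their denominator, and these mice were picked out after their values were seen. For *Klf1*, mice WT_8 and Het_484 differed by less than the counting error of either value, 9.53% and 6.93%, so their order is not resolved.

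**Figure D4:**
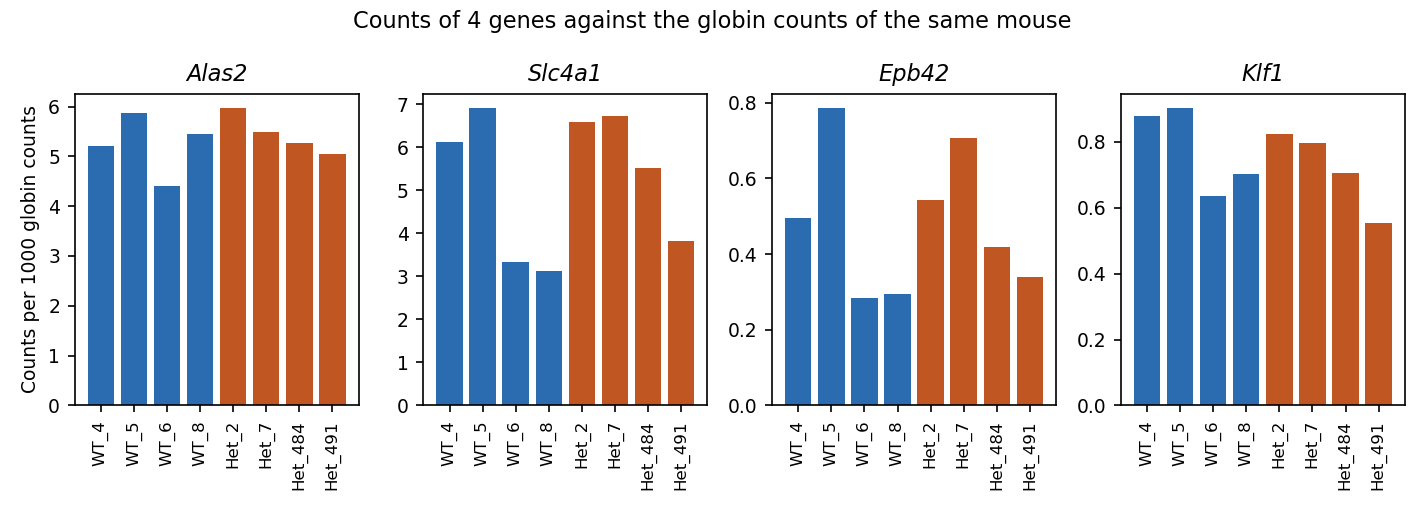
Counts of *Alas2*, *Slc4a1*, *Epb42* and *Klf1* per 1000 globin counts, a panel each, with one bar per mouse (blue WT, orange *Opa1*+/-, axes from 0). *Alas2* varies little between mice, whereas *Slc4a1*, *Epb42* and *Klf1* are lowest in mice WT_6 and WT_8 and mouse Het_491, with mouse Het_484 level with mouse WT_8 for *Klf1*.

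Further genes of red cell biology were taken from lists, and none of their entries was called by edgeR at an adjusted p under 0.05. Of 13 genes of haem synthesis and its mitochondrial transport, 12 had a log2 fold change above 0, the median was 0.20 (0.11 without mouse WT_8 and 0.14 without mouse WT_6), and 2 had an unadjusted p under 0.05. Over all entries, which are the background for this and the following lists, 50.1% had a log2 fold change above 0 and 6.72% an unadjusted p under 0.05. Genes of a list were measured in the same mice and can move together, so these counts are not of separate observations. The 2 genes were *Urod*, the decarboxylase that acts in the middle of the pathway, and *Alad*, which forms its first pyrrole ring. *Urod* had 42.8, 38.7, 37.9 and 39.7 CPM in the WT mice and 45.1, 47.0, 46.2 and 47.2 CPM in the *Opa1*+/- mice. *Alad* had 30.3, 26.8, 29.2 and 24.9 CPM in the WT mice and 31.1, 33.5, 35.5 and 34.2 CPM in the *Opa1*+/- mice. For both genes the groups did not overlap, which held for 4.31% of all entries, and the log2 fold changes were 0.22 ± 0.054 for *Urod* and 0.27 ± 0.075 for *Alad* (SE; adjusted p = 0.722 for each, edgeR).

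*Tmem14c*, a transporter of haem intermediates in mitochondria and the highest of this list per length, averaged 22.9 ± 2.98 CPM in WT against 26.5 ± 1.21 CPM in *Opa1*+/- mice. The summed level of the list was 499, 481, 391 and 368 CPM in the WT mice and averaged 493 ± 2.92 CPM (SD, n = 4) in the *Opa1*+/- mice. As with the 8 genes, mice WT_6 and WT_8 were the lowest.

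Of 21 red cell membrane genes, 19 had a log2 fold change above 0, with a median of 0.14 and 1 unadjusted p under 0.05. That gene was *Kcnn4*, the calcium-activated potassium channel of the red cell, at 11.4 ± 2.10 CPM in WT against 14.8 ± 2.36 CPM in *Opa1*+/- mice (log2 fold change 0.37 ± 0.16, adjusted p = 0.732, edgeR). *Tmod1*, a cap of actin filaments and the highest of the list per length, differed by 0.01 ± 0.072 on the log2 scale. *Dmtn*, an actin bundling protein of the membrane skeleton, and *Aqp1*, a water channel, differed by 0.15 ± 0.081 and 0.14 ± 0.083.

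Of 20 further genes of late red cell maturation, 18 had a log2 fold change above 0, with a median of 0.16, or 0.28 without mouse WT_4 and 0.24 without mouse WT_5, and 2 unadjusted p-values under 0.05. *Tspo2*, an erythroid protein related to the mitochondrial translocator protein, had 1.77, 1.81, 1.13 and 1.81 CPM in the WT mice and 2.72, 3.81, 2.41 and 2.17 CPM in the *Opa1*+/- mice. Its groups did not overlap, with mouse WT_4 between mice WT_6 and WT_5 in level, and the log2 fold change was 0.77 ± 0.24 (SE; adjusted p = 0.722, edgeR). *Bpgm*, which makes the 2,3-bisphosphoglycerate that lowers the oxygen affinity of haemoglobin, averaged 50.1 ± 11.3 and 64.2 ± 9.08 CPM. *Isg20*, an exonuclease, averaged 14.5 ± 6.28 and 22.02 ± 4.83 CPM, and *Car2*, the carbonic anhydrase that is the highest of the list per length, 254 ± 38.2 and 265 ± 22.1 CPM.

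Of 17 erythroid regulators, 12 had a log2 fold change above 0, with a median of 0.10 and no unadjusted p under 0.05. With 1 mouse left out that median ranged from 0.00718, without mouse WT_8, to 0.17, without mouse Het_2. *Epor*, the erythropoietin receptor, averaged 3.501 ± 2.14 CPM in WT against 5.25 ± 1.37 CPM in *Opa1*+/- mice (log2 fold change 0.58 ± 0.39). *Ldb1*, a cofactor of the GATA1 complex and the highest of the list per length, differed by 0.02 ± 0.074 on the log2 scale. Its level was 61.0 to 76.6 CPM. *Gata1* had 10.45, 6.01, 3.405 and 2.25 CPM in the WT mice and 6.15, 6.015, 6.25 and 6.32 CPM in the *Opa1*+/- mice (log2 fold change 0.17 ± 0.39). Mice WT_6 and WT_8 were lowest for *Gata1*, as in the erythroid sum. The median of the list thus covers genes of unlike spread between mice. *Zfpm1*, the GATA1 partner FOG1, and *Zbtb7a*, a repressor of fetal globin in humans, differed by 0.22 ± 0.12 and 0.10 ± 0.059.

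Of 14 genes of iron and haem handling, 10 had a log2 fold change above 0, with a median of 0.04, or 0.08 without mouse WT_4. The only unadjusted p under 0.05 belonged to *Ireb2*, an iron regulatory protein, at 47.7 ± 4.24 CPM in WT against 40.7 ± 2.33 CPM in *Opa1*+/- mice (log2 fold change -0.23 ± 0.075, adjusted p = 0.722, edgeR). *Fth1*, the ferritin heavy chain, was the highest of the list per length at 2295 ± 292 and 2606 ± 270 CPM. *Blvrb*, a biliverdin reductase abundant in red cells, averaged 25.0 ± 6.92 and 31.2 ± 2.70 CPM, and *Tfr2*, a transferrin receptor of liver and erythroid precursors, 2.17 ± 0.953 and 3.27 ± 0.675 CPM.

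The other globin genes were close to the limit of counting. *Hbq1b* and *Hbq1a*, theta globins of the alpha cluster, had 185 and 105 counts over the 8 libraries together and log2 fold changes of 0.45 ± 0.42 and 0.14 ± 0.35. The embryonic and other entries of the alpha and beta clusters had 39 counts in all for *Hba-x*, 18 for *Hbb-bh1*, 14 for *Hbb-y*, 4 for *Hbb-bh2* and 0 for *Hbb-bh0*. These 5 were below the minimum for the test, and nearly all globin counts of these samples were of the 4 adult genes above.

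Markers of other blood and marrow cells were measured beside the erythroid genes. The summed level of 20 neutrophil and promyelocyte genes was 1628, 507, 528 and 619 CPM in the WT mice and 613, 531, 991 and 1312 CPM in the *Opa1*+/- mice. The same 3 mice, WT_4, Het_491 and Het_484, led this sum and the erythroid sum. Mice WT_6 and WT_8, however, were lowest in the erythroid sum and had neutrophil sums like those of mouse WT_5 and mice Het_2 and Het_7. No defining neutrophil marker was at 0, and *S100a9*, the highest of the list per length, ranged from 99.7 to 474 CPM.

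The sum of 12 megakaryocyte and platelet genes was 239, 107, 75.8 and 80.2 CPM in the WT mice and 96.4, 87.3, 147 and 121 CPM in the *Opa1*+/- mice, again with mouse WT_4 highest and mice WT_6 and WT_8 lowest. Over 20 cell cycle genes it was 478, 315, 182 and 176 CPM in the WT mice and 326, 337, 388 and 346 CPM in the *Opa1*+/- mice, with mice WT_6 and WT_8 lowest as in the erythroid sum. Over 14 B cell and B progenitor genes it ranged from 195 to 235 CPM in WT and from 195 to 285 CPM in *Opa1*+/- mice. *Vpreb1* and *Igll1*, markers of B cell progenitors that are found in marrow, were above 0 in every library, at 0.239 to 1.199 CPM and 0.251 to 0.628 CPM, whereas *Vpreb2* of the same list had 17 counts in all and was at 0 in mice WT_6 and Het_491. The part of blood or marrow content in the erythroid levels was not tested.

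With all 8 mice, the medians of the other blood and marrow cell lists lay below 0 and that of the cell cycle list above 0. Log2 fold changes were above 0 for 10 of 20 neutrophil genes (median -0.01), 2 of 12 megakaryocyte genes (median -0.21), 2 of the 10 B cell genes tested (median -0.10) and 19 of 20 cell cycle genes (median 0.24). These medians moved with the mice included, and that of the neutrophil list also lay above 0 without mouse Het_2 or mouse Het_7, at 0.09 and 0.15. Without mouse WT_5, WT_6, WT_8, Het_484 or Het_491 the neutrophil median ranged from -0.20 (WT_6) to -0.12 (WT_8). The cell cycle median was 0.05 without mouse WT_8 and 0.09 without mouse WT_6. With a mouse other than WT_4 left out, the megakaryocyte median ranged from -0.42 (WT_8) to -0.08 (Het_7) and the B cell median from -0.23 (WT_6) to -0.03 (Het_7). Without mouse WT_4 they were 0.63, 0.40, 0.20 and 0.58 in the same order of lists, all above 0, and without mice Het_484 and Het_491 they were -0.55, -0.61, -0.33 and 0.14. With limma voom the 4 medians were 0.15, 0.06, -0.02 and 0.44, that of the late red cell list 0.25 and that of the endothelial list 0.16.

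Among the cell types of the cochlear tissue they were above 0 for 12 of 12 endothelial genes (median 0.09), 3 of 13 bone genes (median -0.03), 3 of 10 hair cell genes (median -0.06), 5 of 10 spiral ganglion neuron genes (median 0.00483) and 1 of 10 stria vascularis genes (median -0.15). With 1 mouse left out, the sign of the median turned for hair cells (0.07 without mouse WT_6, 0.00322 without mouse Het_484), for bone (0.02 without mouse Het_491) and for neurons (lowest -0.05, without mouse Het_491), and the ranges were 0.03 to 0.15 for the endothelial list and -0.33 to -0.00747 for the stria vascularis list, the ends of the latter without mice WT_4 and WT_6. Of the endothelial genes, *Cdh5*, the cadherin of vessel walls, averaged 57.6 ± 4.02 CPM in WT against 66.1 ± 3.54 CPM in *Opa1*+/- mice without overlap (unadjusted p = 0.0149, adjusted p = 0.722, edgeR). *Pecam1*, the other defining endothelial marker, averaged 81.4 ± 4.37 and 83.2 ± 11.5 CPM with overlapping groups (log2 fold change 0.03 ± 0.098). *Cdh5* was the only gene of this list whose groups did not overlap. The sum of the stria vascularis genes was lowest in mouse WT_4, at 1007 CPM, against 1290.0 to 1957 CPM in the other 7 mice.

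Single genes of these lists, the highest per length and those of lowest p, are given here by their log2 fold changes ± SE. In the neutrophil list they were 0.58 ± 0.42 for *Ltf*, -0.26 ± 0.26 for *Itgam* and -0.35 ± 0.43 for *Ctsg*, and *S100a9* averaged 216 CPM in both groups. In the megakaryocyte list they were -0.10 ± 0.41 for *Pf4*, -0.39 ± 0.37 for *Gp6*, -0.48 ± 0.47 for *Treml1* and -0.41 ± 0.52 for *Ppbp*. None of these differences was called. In the B cell list they were 0.44 ± 0.32 for *Ighm*, -0.66 ± 0.36 for *Rag1* and -0.60 ± 0.46 for *Dntt*, and among cell cycle genes 0.15 ± 0.12 for *Pcna*, 0.37 ± 0.18 for *Tyms* and 0.36 ± 0.20 for *Mcm5*. Endothelial *Plvap* and *Tie1* had 0.32 ± 0.13 and 0.20 ± 0.11, and bone *Spp1*, *Col1a2* and *Sp7* had -0.13 ± 0.10, -0.15 ± 0.13 and 0.14 ± 0.12. In none of these did edgeR give an adjusted p under 0.05. Hair cell *Ocm*, *Slc17a8* and *Espn* had 0.21 ± 0.25, -0.17 ± 0.18 and -0.15 ± 0.19. Neuronal *Nefl*, *Snap25*, *Syt1* and *Nefh* had -0.01 ± 0.083, -0.13 ± 0.10, -0.09 ± 0.11 and -0.06 ± 0.12, and *Atp1b2*, *Slc12a2* and *Esrrb* of the stria vascularis had -0.24 ± 0.19, -0.24 ± 0.18 and -0.19 ± 0.20. These too were not called.

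**Figure D5:**
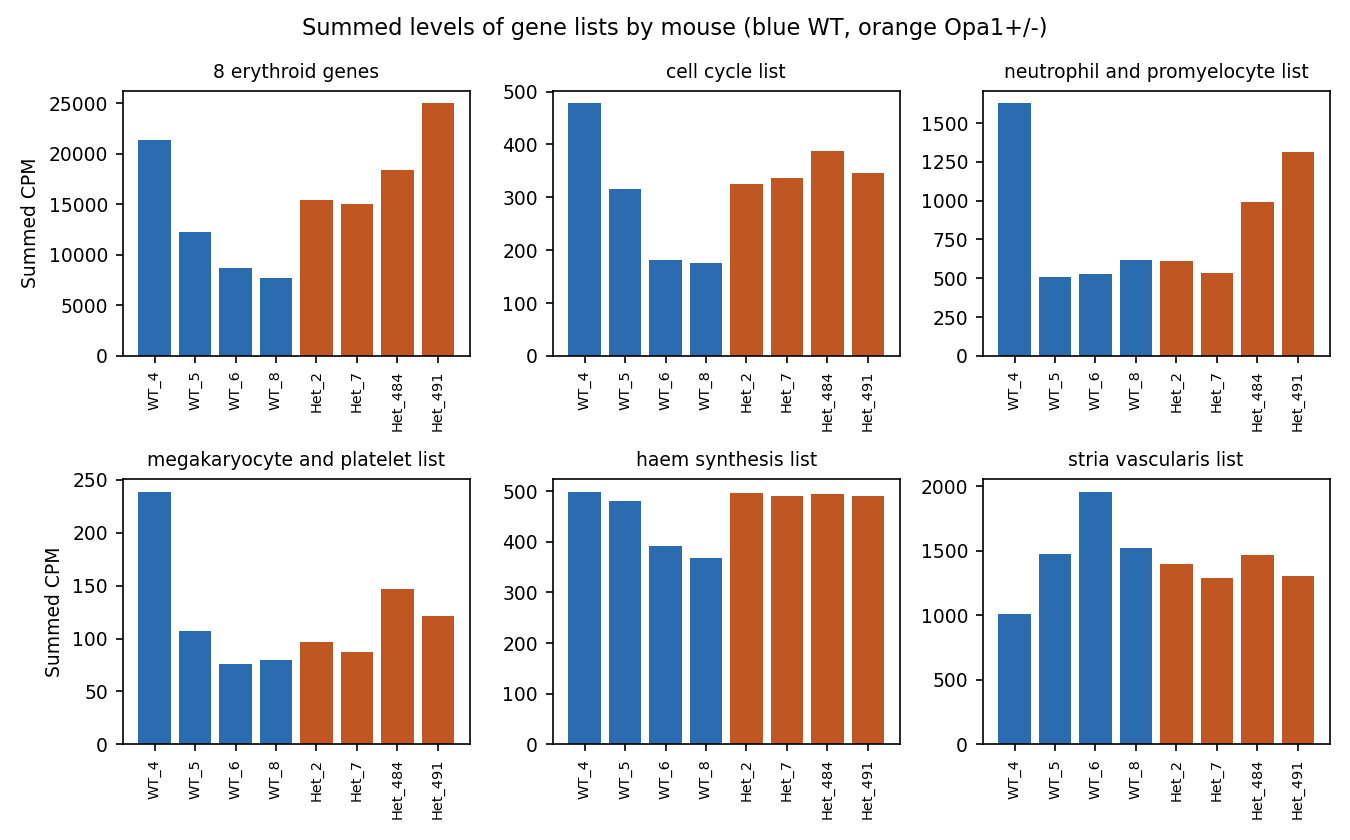
Summed CPM per mouse of the 8 erythroid genes and of the cell cycle, neutrophil and promyelocyte, megakaryocyte and platelet, haem synthesis and stria vascularis lists, with one bar per mouse (blue WT, orange *Opa1*+/-, axes from 0). Mouse WT_4 is high in the erythroid, cell cycle, neutrophil and megakaryocyte panels and lowest in the stria vascularis panel, and mice WT_6 and WT_8 are lowest in the erythroid, cell cycle, megakaryocyte and haem synthesis panels.

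The genes whose pattern over the 8 mice was most like that of the erythroid genes were found by the SD of the log2 ratio of each of the 19358 other entries tested to the mean log2 CPM of the 8 genes. A small SD means that a gene moved in step with the 8, whose mean itself had an SD of 0.66, and the median over the other entries was 0.69. The nearest was *Tal1*, a transcription factor of blood precursors, with an SD of 0.13. It had 12.7, 8.69, 4.84 and 3.92 CPM in the WT mice and 9.87, 9.93, 10.03 and 10.9 CPM in the *Opa1*+/- mice, so mouse WT_4 was the highest and mice WT_6 and WT_8 the lowest.

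The next 9 were *Rsad2*, an interferon-induced antiviral gene, at an SD of 0.16, *Grap2*, an adaptor of blood cell signalling, at 0.17, *Casc5*, a kinetochore gene, at 0.17, *Tk1*, a thymidine kinase, at 0.18, *1300017J02Rik* at 0.18, *Ccnb1*, a mitotic cyclin, at 0.19, *Troap* at 0.19, *Tfr2* at 0.19 and *Cldn13* at 0.19. Within the 8 genes themselves the SD was 0.11 for *Alas2*, 0.13 for *Hbb-bs*, *Hbb-bt* and *Klf1*, 0.17 for *Hba-a1*, 0.21 for *Hba-a2*, 0.32 for *Slc4a1* and 0.37 for *Epb42*, although each of these is part of the mean it was compared with. This is a description over 8 samples that share library depth and tissue, and several of the genes have few counts.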

How the data were processed

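Cochlear RNA seq of 4 WT and 4 *Opa1*+/- mice was analysed, with genotypes from the sample labels. The age is p21 in the paper's methods and results and 1 month in its discussion. RNA was extracted with TRI Reagent and NucleoSpin columns per the paper, and with TRI Reagent or an RNeasy kit per the labels, with no kit given for single mice. The authors made CORALL libraries, read 80 bases from each end, used molecular identifiers, mapped with STAR to GRCm38 and deposited a table of raw counts per gene for each mouse. The paper names the CORALL Data Analysis Pipeline for the raw data, but counting program and strand are not given in the sources used here. The 15 entries without a gene name held 0.111 to 0.124% of counts and were left out.

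Library sizes over 47628 named entries were scaled by TMM in edgeR 4.0.16. The quasi-likelihood test was run on entries with a mean count over 10 after DESeq2 normalisation, with Benjamini-Hochberg adjustment at 0.05 and genotype as the only term. Standard errors were derived from the fold change and the F statistic. The test was checked on simulated data. DESeq2 1.42.0 and limma 3.58.1 were alternatives. Lengths are merged exons of GENCODE vM21. Ratios were compared by exact permutation.

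The genes and lists were chosen with earlier results of these data known. In each list, the text names the highest entry per length and up to 3 with the lowest p, and the 10 non-members nearest in pattern. Some further entries, such as cell type markers and *Gata1*, are named beside these. One gene of the rule is not reported here, nor is its ratio.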

Additional observations from a re-analysis of the deposited data

Results flagged for a closer look

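In groups of 4 mice, Dixon's test looked for a sample far from the others in 72 groups of values, of which chance alone passes about 1 in 20, and 2 passed the critical value for 4 samples. *Slc4a1* in mouse Het_491 was at 94.9 CPM against 99.9 to 100.4 CPM in the other 3 *Opa1*+/- mice, a gap of 0.903 of a very narrow range. The neutrophil and promyelocyte sum of mouse WT_4 was 1628 CPM, while the remaining 3 WT mice had 507 to 619 CPM, a gap of 0.900 of the range.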

How the results depend on the processing

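No paired analysis was possible because the 2 genotypes share no animal number. Other scalings, filters and tools, and leaving out each mouse or both *Opa1*+/- mice with 3-digit numbers, called none of the 8 genes and left each log2 fold change above 0. The median over the 8 genes ranged from 0.34 to 0.95, the lowest without mice Het_484 and Het_491 and the highest without mouse WT_4. The fold change of the summed level ranged from 1.21 to 1.93. Leaving out those 2 mice together with mouse WT_4 was added after seeing the data.

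*Opa1* stayed lower in *Opa1*+/- mice, at -0.83 to -0.90 (log2) with 1 mouse left out, where the adjusted p passed 0.05 only without mouse Het_2 (-0.85, adjusted p = 0.0704). It was -0.86 (adjusted p = 0.260) without mice Het_484 and Het_491 and -0.87 (adjusted p = 0.656) also without mouse WT_4, with fewer samples. The median of the endothelial list was 0.22 without mice Het_484 and Het_491. Over all entries edgeR called 5, from 0 to 9 with 1 mouse left out, 10 with robust estimation, 12 without a filter, 10 by limma voom and 23 by DESeq2.

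Differences of log2 ratios, *Opa1*+/- minus WT, passed no test, and for 6 of the 7 ratios the sign changed with 1 mouse left out. *Slc4a1* to globin was the exception, at 0.0879 to 0.468. Alpha to beta ranged from -0.0971 to 0.0142, with the sign changed without mouse WT_6. *Hba-a1* to *Hba-a2* ranged from -0.0180 to 0.0297, with the sign changed without WT_6 (-0.00615), WT_8 (-0.00473), Het_7 or Het_484 (-0.00286). *Hbb-bt* to *Hbb-bs* ranged from -0.00496, without WT_5, to 0.0287. Against globin, *Alas2* ranged from -0.0180 and *Epb42* from -0.00659, both without WT_6, to 0.121 and 0.484. *Klf1* ranged from -0.209 to 0.00580, the latter without Het_491, and was 0.0717 without Het_484 and Het_491. The cause was not tested. With 4 mice a group, a 1.46-fold globin difference could not be told from the spread between mice. Counting error was largest among the 8 genes for *Epb42* and *Klf1*, and the theta, embryonic and other globin entries, *Tspo2* and *Tfr2* had fewer counts still.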
